A study of Mus musculus with 42 samples.

Results

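Whole-liver RNA from the same 3 mice was made into libraries with 2 kits, SMART-Seq v4 (SMTseq4) and TruSeq v2 (Tru4), each from 4 ng of total RNA, and the 3 libraries of each kit were compared gene by gene. These 6 libraries were chosen by kit, amount and fraction from the 42 of the series, which tests 5 kits on liver RNA before (input) and after (IP) pulling down tagged ribosomes. All mice were untreated and carried Gfi1Cre/+;Rpl22HA/HA, that is, a Cre recombinase driven from the Gfi1 locus and a ribosomal protein gene that gains an HA tag only in cells that have had Cre; input RNA comes from all liver cells, tagged or not. The growth protocol gives an age of postnatal day 30 and a stage tag gives day 1, and the mice of both kits share this conflict.

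SMTseq4 comprised the libraries labelled input replicates 1 to 3. Tru4 comprised the libraries labelled input replicates 1 and 2 and the library labelled IP replicate 3, because the labels of the third Tru4 pair went against the data. The library labelled Tru4 IP 3 had Spearman correlations of 0.982 and 0.983 with Tru4 inputs 1 and 2 and of 0.821 with each of IPs 1 and 2, across 15828 genes. The library labelled Tru4 input 3 had 0.840 and 0.838 with those inputs and 0.963 and 0.983 with those IPs. Below, Tru4 replicate 3 means the library labelled IP 3, and the main counts are also given without it and with the labels as written. The kits were sequenced at different centres on different instruments, so kit and centre cannot be told apart in any difference below.

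Both kits start from the poly(A) tail, at different steps. TruSeq captures polyadenylated RNA on oligo-dT beads, breaks it into fragments and copies the fragments with random primers, so that every fragment of a captured molecule can enter the library. SMART-Seq v4 primes reverse transcription with oligo-dT and keeps cDNA whose synthesis ran to the end of the template, where the enzyme adds a switch sequence. The full-length cDNA is then amplified and cut by a transposase. A molecule that is long, or hard to copy in one run, therefore meets a different step in each protocol, and RNAs without a long poly(A) tail (replication-dependent histone mRNAs, ribosomal and small structured RNAs) have no intended way into either.

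The exon counts summed to between 23573272 and 30217161 per SMTseq4 library and between 31299550 and 45466334 per Tru4 library. Genes with at least 1 read numbered 19111, 19287 and 19630 with SMTseq4 and 19906, 19863 and 19631 with Tru4, and all 3 Tru4 libraries were above all 3 SMTseq4 libraries, the last by a single gene (exact permutation test, two-sided, p = 0.1, the smallest that 3 against 3 allows). After all libraries were drawn down to 23573272 counts the groups overlapped (19191 ± 71.7 against 19312 ± 216 genes, SD, n = 3; exact p = 0.6). The 10 genes with the most counts held 18.6% ± 0.160 of all counts with SMTseq4 and 26.7% ± 1.34 with Tru4. Spearman correlations were 0.980 to 0.988 within kits and 0.916 to 0.935 between them.

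Of 14967 genes tested with edgeR's quasi-likelihood test, 6956 (46.5%) differed between the kits at a Benjamini-Hochberg adjusted p under 0.05. At least a 2-fold difference was also met by 1292 genes higher with SMTseq4 (8.63% of those tested) and by 2318 higher with Tru4 (15.5%); "rose", "higher" and "called" below refer to these counts unless a smaller ratio is stated. Without Tru4 replicate 3 the counts were 1382 and 2325, and with the labels as written they were 992 and 1765 of 3201 genes past the test. All ratios are log2(SMTseq4/Tru4), and the median over all tested genes was -0.01. A second pair of libraries from the same mice and the same kits, made from 0.25 ng with SMART-Seq v4 and from 70 ng with TruSeq (3 libraries each, no library in common with the first pair), gave 1168 genes at least 2-fold higher with SMART-Seq (8.21% of 14234 tested) and 1495 higher with TruSeq (10.5%). Of the genes called in the first pair, 742 (57.4% of the 1292 and 63.5% of the 1168) were called toward SMART-Seq in both, with 0 called the opposite way, and 1144 (49.4% and 76.5%) toward TruSeq in both, with 1 called the opposite way.

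The ratio of protein-coding genes went with transcript length. Coding genes whose longest annotated transcript was 0.5 to 1 kb had a median log2 ratio of 1.06, with 231 of 450 at least 2-fold higher with SMTseq4 (51.3%) and 21 higher with Tru4. The median was 0.55 at 1 to 2 kb, 0.09 at 2 to 4 kb, -0.35 at 4 to 6 kb, -0.69 at 6 to 8 kb and -0.79 at 8 to 10 kb. At the long end, 98 of 257 genes of 10 to 15 kb and 20 of 47 genes over 15 kb were higher with Tru4 (medians -0.85 and -0.91), against 3 and 0 higher with SMTseq4. On log2(RPKM + 0.1) of the authors' RPKM tables the medians were smaller, -0.28 at 6 to 8 kb, -0.33 at 8 to 10 kb, -0.20 at 10 to 15 kb and -0.37 over 15 kb. Of all 309 tested genes over 10 kb only 12 reached a mean of 1 RPKM, and these had medians of -0.98 in counts and -0.82 in RPKM. Each mouse taken alone gave the same falling order from 0.5 to 8 kb. Beyond that the spread between mice was as large as the steps: for the genes over 15 kb the median was -0.68 in mouse 1, -1.26 in mouse 2 and -0.83 in mouse 3. In the second pair the medians ran from 1.02 at 0.5 to 1 kb to -0.67 over 15 kb.

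**Figure D1:**
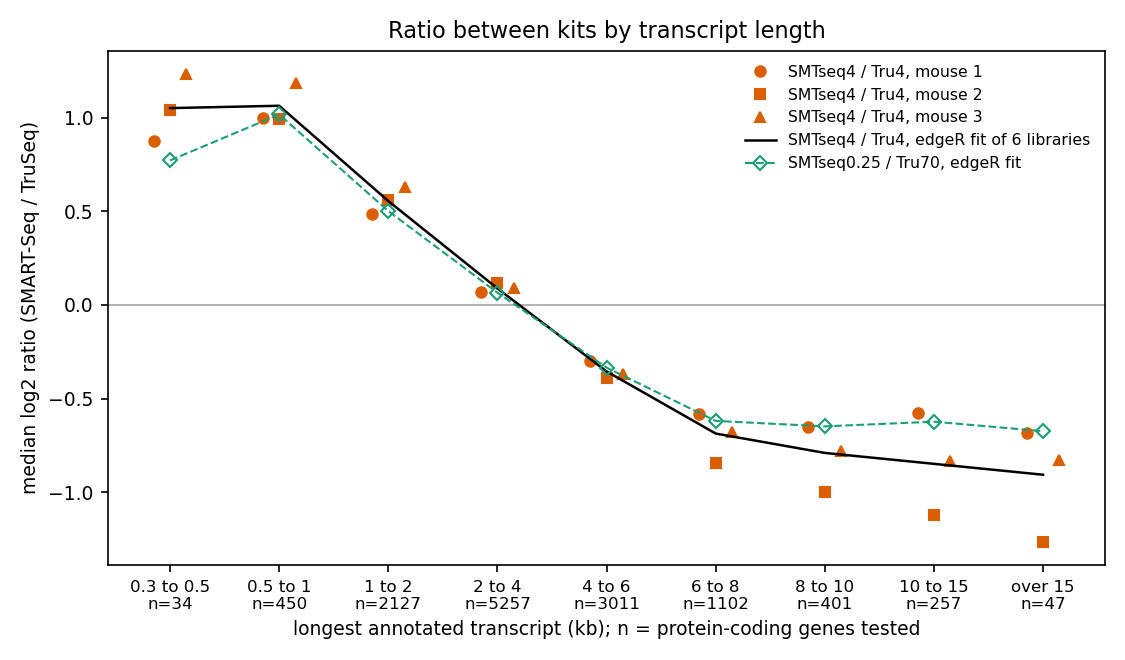
Median log2 ratio (SMART-Seq over TruSeq, y axis) of protein-coding genes by longest annotated transcript (x axis, kb, with the number of genes tested). Filled points are the 3 mice, the black line is the fit of all 6 libraries and the dashed green line is the second pair; all fall from about 1 under 1 kb to below 0 above 4 kb, and the mice spread apart above 6 kb.

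Over all RNA types the shortest class behaved differently. The 621 tested genes up to 0.5 kb, of which 481 were processed pseudogenes, had a median of -0.05, with 142 higher with SMTseq4 and 166 higher with Tru4. The 34 coding genes of 0.3 to 0.5 kb among them had a median of 1.05. The 1076 genes of 0.5 to 1 kb had a median of 0.59 (324 and 180), the 12917 genes of 1 to 10 kb one of -0.02 (817 and 1845) and the 309 genes over 10 kb one of -0.87 (3 and 119).

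GC content went with the ratio inside each length class. Among coding genes over 8 kb the median log2 ratio was -0.06 for the 65 genes with under 40% GC and -1.995 for the 52 genes with 55 to 60% GC, of which 47 were called toward Tru4. At 1 to 2 kb the medians were 0.61 under 40% GC (62 genes), 0.88 at 40 to 45% (267 genes) and 0.26 over 60% (151 genes). Across 12688 coding genes, which are not independent replicates and share the 6 libraries, the ratio had a Spearman correlation of -0.52 with log2 transcript length and of -0.20 with GC content (-0.42 and -0.31 over 12172 genes in the second pair).

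**Figure D2:**
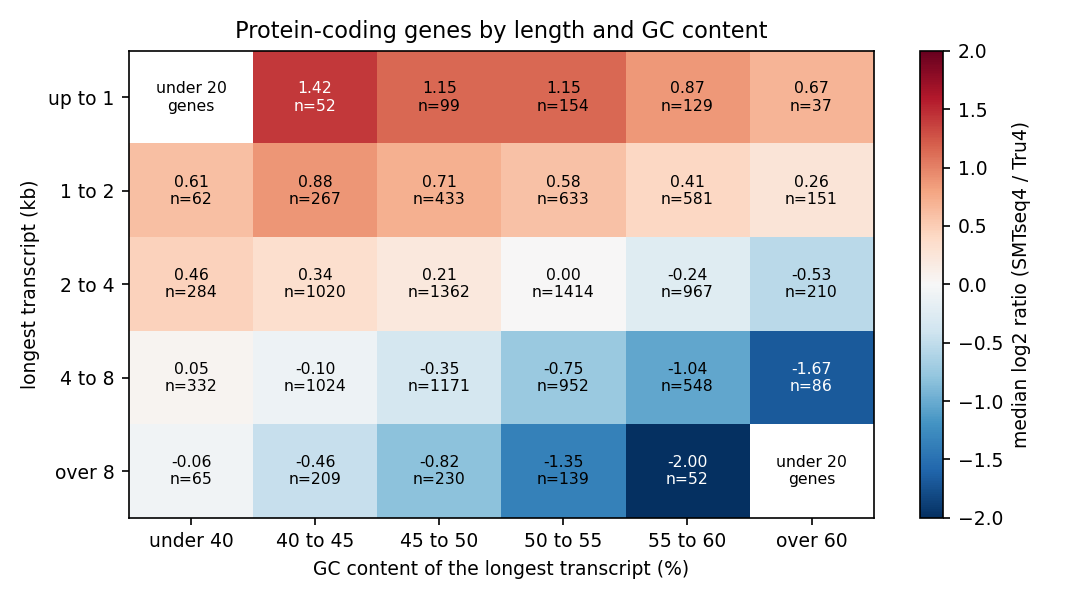
Median log2 ratio (SMTseq4 over Tru4, colour) of protein-coding genes by longest transcript (rows, kb) and its GC content (columns, %), with the number of genes in each cell. In every column the medians fall from top to bottom, down to -1.995 among the cells drawn; cells with under 20 genes are blank, among them the 10 genes over 8 kb with over 60% GC, whose median was -2.71.

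The 31 tested members of a list of very long transcripts had a median of -1.28, with 20 called toward Tru4 and 0 toward SMTseq4. On log2(RPKM + 0.1) the median was -0.45. Among the called members is Col4a3bp (log2 ratio -1.28), whose longest annotated transcript has only 5285 bases. Apob, which encodes the structural protein of very low density lipoprotein (transcript of 13934 bases, chr12:7977648-8016835 in GRCm38), was at 1474, 1243 and 1157 CPM (assigned reads scaled to a common library total) with SMTseq4 and at 3239, 3494 and 2925 CPM with Tru4. Its log2 ratio was -1.35 ± 0.14 (SE; adjusted p = 8.18e-05), and the kits did not overlap. Lrp1, an endocytic receptor that clears lipoprotein remnants (14888 bases), was at 204, 138 and 157 CPM against 611, 660 and 509 CPM, a log2 ratio of -1.86 ± 0.17 (adjusted p = 5.29e-05). The ubiquitin ligases Huwe1 and Ubr4 had log2 ratios of -1.76 and -1.91. Kmt2d, a histone H3 lysine 4 methyltransferase (19823 bases, 58.4% GC), was at 13.2, 7.56 and 12.8 CPM with SMTseq4 and at 88.7, 87.5 and 96.7 CPM with Tru4, a log2 ratio of -3.05 ± 0.22 (adjusted p = 1.90e-05). Not every member of the list passed the test. Ahnak, a large scaffold protein (18100 bases, 47.6% GC), was at 12.02 ± 1.46 against 14.6 ± 1.21 CPM (SD, n = 3), a log2 ratio of -0.31 that did not pass the test (adjusted p = 0.0955).

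Over 10 kb, the genes with the largest ratios toward Tru4 under the naming rule were Hspg2 (perlecan, a basement membrane proteoglycan), Bahcc1 (a chromatin protein) and Sh3pxd2a (an invadopodium scaffold), at log2 ratios of -3.50, -3.36 and -3.10, with GC contents of 60.9%, 60.3% and 53.8%. The only 3 genes of that length called the other way were Ebpl, Zfp871 and Agpat5 (log2 ratios of 1.49, 1.195 and 1.14), with GC contents of 47.1%, 40.01% and 43.0%. For Ebpl, which is related to a sterol isomerase, the 10092 bases belong to its longest annotated transcript, which is not necessarily the one that liver makes.

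Some transcripts under 10 kb had few reads with SMTseq4. Lrp5, a Wnt co-receptor (8893 bases), was at 10.6, 3.90 and 6.25 CPM with SMTseq4 and at 188, 184 and 171 CPM with Tru4 (log2 ratio -4.74 ± 0.32; adjusted p = 1.46e-05). Foxo4, a forkhead transcription factor (3162 bases), was at 0.764, 0.203 and 0.894 CPM against 37.5, 30.7 and 34.5 CPM. Taf15, an RNA-binding protein of the FET family (2068 bases), was at 3.14, 1.83 and 1.49 CPM against 85.7, 70.3 and 72.8 CPM. The log2 ratios of Foxo4, Taf15, Isoc2a and Tatdn2 were -5.77, -5.19, -5.17 and -4.93, and -4.90, -4.69, -5.60 and -5.68 in the second pair. None of the 5 genes overlapped the exons of another annotated gene, and the ratios were -3.18 to -4.57 in the deposited RPKM tables, each past the test there.

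The nuclear-encoded subunits of the respiratory chain, the mitochondrial complexes that carry electrons and make ATP, were the list with the most members higher with SMTseq4. Of 80 tested, 56 were at least 2-fold higher with SMTseq4 and 0 with Tru4, with a median log2 ratio of 1.36 (1.15 in the second pair). Ndufc1, a small subunit of complex I, was at 176, 166 and 230 CPM with SMTseq4 and at 20.9, 23.3 and 24.8 CPM with Tru4 (log2 ratio 3.03 ± 0.18; adjusted p = 8.22e-06). Cox6a1, a subunit of cytochrome c oxidase (620 bases), was at 654, 597 and 848 CPM against 299, 280 and 325 CPM (log2 ratio 1.19 ± 0.17; adjusted p = 0.000519). In both genes every SMTseq4 library was above every Tru4 library. The 2 large catalytic subunits of the ATP synthase had smaller ratios that did not pass the test: Atp5b, at 1916 bases, had 0.37 (adjusted p = 0.0653), and Atp5a1, at 2674 bases, had 0.26 (adjusted p = 0.203). Both passed with mouse as a replicate block, at 0.37 and 0.26. Ratios in the list did not simply follow annotated length. Ndufb2 (4371 bases) had the largest ratio, 3.56, and Cox7c (709 bases) had -0.25, which did not pass the test. Cox7a2l, an assembly factor of respiratory supercomplexes, was the one member past the test toward Tru4, at a log2 ratio of -0.63 (adjusted p = 0.00218).

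Other short liver transcripts rose in the same direction. Among 21 short metal-binding and housekeeping genes 11 were higher with SMTseq4 and 2 with Tru4 (median 1.08). Fabp1, the fatty acid-binding protein of hepatocyte cytosol (553 bases), was at 11889, 9811 and 11946 CPM with SMTseq4 and at 4160, 3414 and 3457 CPM with Tru4 (log2 ratio 1.58 ± 0.16; adjusted p = 7.44e-05). Dbi, an acyl-CoA-binding protein (660 bases), was at 2529, 2814 and 4237 CPM against 574, 689 and 805 CPM (log2 ratio 2.19 ± 0.24; adjusted p = 0.000127). The third mouse gave the highest Dbi value with either kit. Fth1, the ferritin heavy chain, and Prdx1, a peroxiredoxin, had log2 ratios of 1.07 and 1.63. Of those called toward Tru4, Sod1, the cytosolic superoxide dismutase, had the larger ratio (-1.28; adjusted p = 0.00011).

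**Figure D3:**
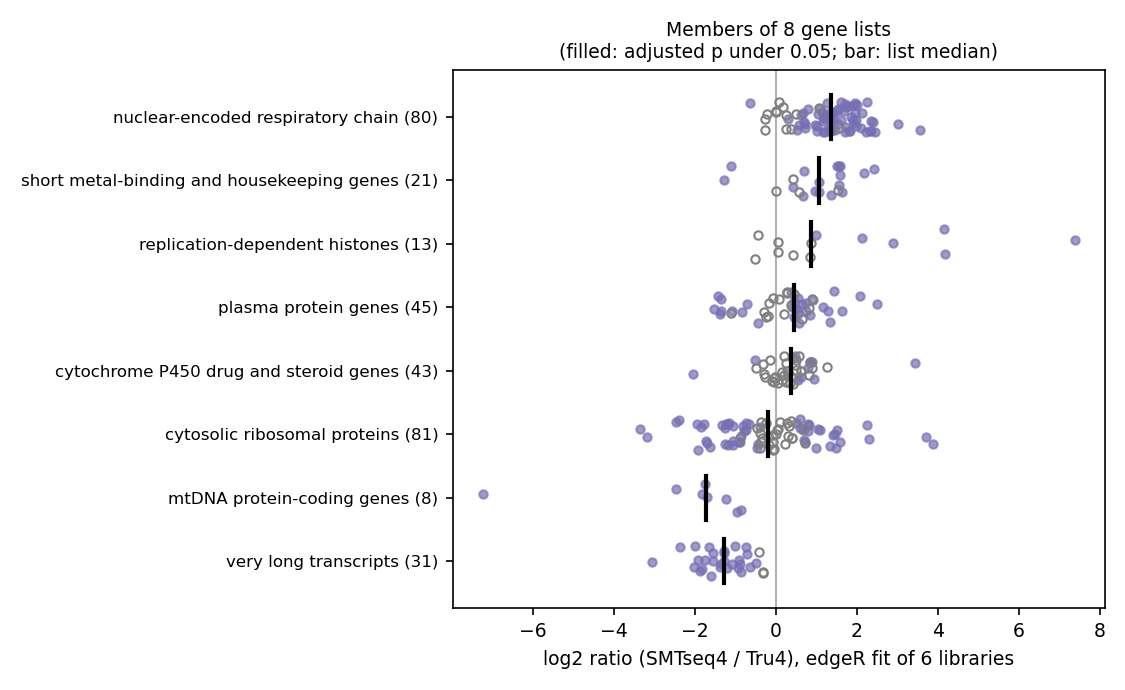
Log2 ratio (SMTseq4 over Tru4, x axis) of each tested member of 8 gene lists (rows, number of members in brackets), filled where the adjusted p is under 0.05, with the list median as a bar. Nearly all respiratory chain members lie to the right of 0 and all members of the list of very long transcripts to the left, while the ribosomal protein genes spread to both sides.

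The genes of secreted plasma proteins, the main product of hepatocytes, did not move one way. Of 45 tested, 7 were at least 2-fold higher with SMTseq4 and 6 with Tru4 (median 0.44). Alb, serum albumin (2034 bases, chr5:90460897-90476602), took 47849, 51573 and 48540 CPM with SMTseq4 and 131988, 146382 and 136326 CPM with Tru4, the largest count of any gene with either kit. Its log2 ratio was -1.52 ± 0.15 (adjusted p = 7.74e-05; -1.31 in the second pair), although its length class had a median near 0. Apoa2, an apolipoprotein of high density lipoprotein (518 bases), was at 21594, 21176 and 21081 CPM against 7160, 6908 and 6096 CPM (log2 ratio 1.63 ± 0.13; adjusted p = 3.52e-05). Apoc4, another lipoprotein component, had the largest ratio of the list toward SMTseq4, 2.50 (1153 ± 106 against 199.6 ± 19.1 CPM, SD, n = 3). Ahsg (fetuin-A) was at 17263 ± 3433 against 18964 ± 4835 CPM and did not pass the test (log2 ratio -0.17 ± 0.21; adjusted p = 0.553). Apoe lay near the threshold: its log2 ratio of 0.40 passed with all libraries (adjusted p = 0.041) and did not pass when any 1 library was left out.

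**Figure D4:**
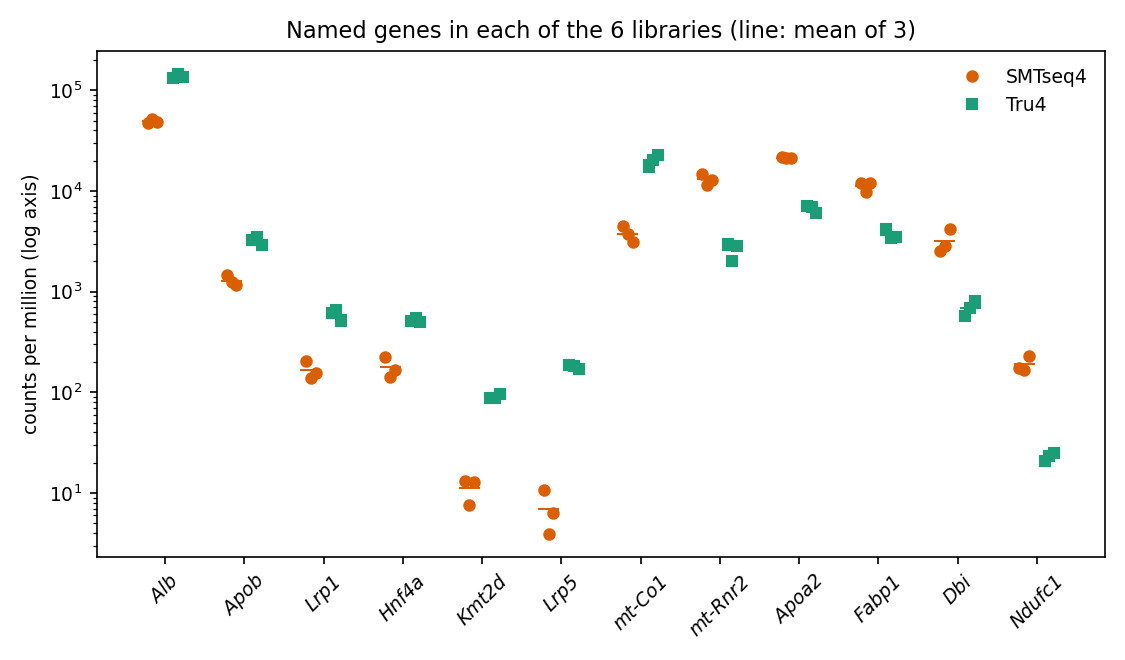
CPM (log axis) of 12 genes in each of the 3 SMTseq4 libraries (orange circles) and 3 Tru4 libraries (green squares), with a line at each mean; kits are to be compared within a gene, since CPM are not per length. The 7 genes from Alb to mt-Co1 are higher with Tru4 and the 5 from mt-Rnr2 to Ndufc1 higher with SMTseq4, with no overlap between kits for any of the 12.

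Cytochrome P450 genes, which oxidise drugs and steroids, had few called members: of 43 tested, 1 was called in each direction, with a median of 0.38. Cyp2e1, the ethanol-inducible form, was at 5337 against 4698 CPM on average (log2 ratio 0.15; adjusted p = 0.592). Both called genes, Cyp2d11 (3.44) and Cyp4a32 (-2.04), have close relatives in their gene families, and the ratio of Cyp4a32 was 1.62 in the deposited RPKM tables. Cyp2d11 averaged only 1.619 CPM with SMTseq4 and 0.143 CPM with Tru4, and reached the filter on low counts only through the SMTseq4 libraries.

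Replication-dependent histone genes, whose mRNAs mostly end in a stem-loop in place of a poly(A) tail, were tested for 13 of 68 listed members, of which 6 were higher with SMTseq4 and 0 with Tru4. Low members such as Hist1h4d reached the filter on low counts only through the SMTseq4 libraries, so this tally is partly set by the filter and is no support for a direction of the list. Hist1h1e, a linker histone, was at 10.9, 9.99 and 15.4 CPM with SMTseq4 and at 0.799, 0.286 and 0.961 CPM with Tru4 (log2 ratio 4.15 ± 0.41; adjusted p = 7.93e-05). Hist1h4d, a histone H4 gene, was at 6.24, 7.31 and 11.5 CPM against 0.128, 0 and 0.0283 CPM (log2 ratio 7.39 ± 0.63; adjusted p = 3.94e-05). The 2 most abundant members of the list differed less. Hist1h2bc had 243, 205 and 199.7 CPM against 121, 103 and 93.3 CPM (log2 ratio 1.0001 ± 0.13; adjusted p = 0.000376), and Hist1h1c had 56.3 ± 7.89 against 53.0 ± 14.0 CPM (log2 ratio 0.06; adjusted p = 0.823).

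The 81 tested genes of cytosolic ribosomal proteins spread in both directions, with 12 higher with SMTseq4, 21 with Tru4 and a median of -0.18. Rps27, of the small subunit, was at 11.9, 11.5 and 12.9 CPM against 1.15, 0.858 and 0.707 CPM (log2 ratio 3.72 ± 0.24; adjusted p = 1.09e-05). Rpl8 of the large subunit had 157.5 ± 8.73 against 343 ± 26.5 CPM (log2 ratio -1.15). These genes have many processed pseudogenes, and reads that fit several places equally well were left out of the counts. Such reads took 31.5% to 39.9% of the alignment lines of the SMTseq4 libraries and 19.9% to 22.6% of those of the Tru4 libraries. Their part in these ratios was not tested.

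The authors also deposited RPKM tables of the same libraries, which include reads that the counts leave out: between 899 and 1198 genes per library had 0 counts and at least 1 RPKM. The respiratory chain had nearly the same median in both tables (1.36 in counts, 1.35 in RPKM). Gene families with near-identical copies moved further, as did the long coding genes described above. The median log2 ratio of ribosomal protein genes was -0.18 in counts and 1.12 in RPKM. That of 1339 tested pseudogenes was -0.30 in counts (177 called toward SMTseq4 and 400 toward Tru4) and 0.78 in RPKM. For the 10 tested of 21 major urinary protein genes, which encode pheromone carriers secreted by liver, it was 0.80 in counts and 2.87 in RPKM.

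**Figure D5:**
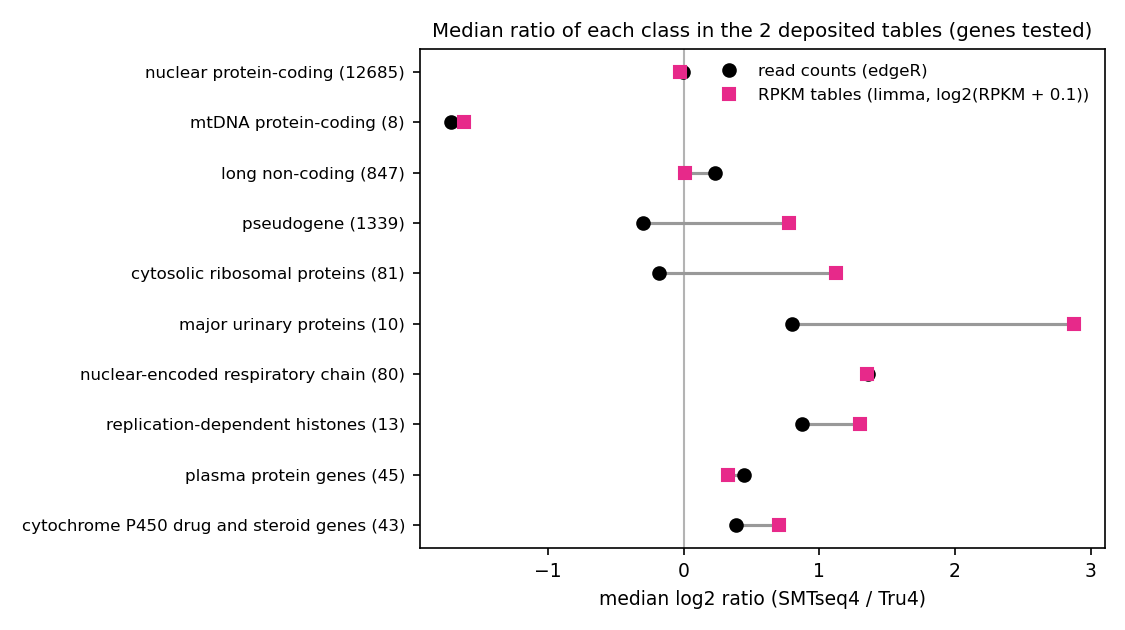
Median log2 ratio (SMTseq4 over Tru4, x axis) of 10 gene classes (rows, genes tested in brackets) in the deposited read counts (black) and in the deposited RPKM tables of the same 6 libraries (pink). Pseudogenes and ribosomal protein genes lie below 0 in counts and above 0 in RPKM, while the respiratory chain median hardly moves; the nuclear coding median lies near 0 in both tables.

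Of the 1292 genes called toward SMTseq4 on counts, 716 (55.4%) were called the same way by limma on log2(RPKM + 0.1), 97.4% had the same sign and 4 were called the opposite way. Of the 2318 called toward Tru4, 956 (41.2%) were called the same way, 87.2% had the same sign and 112 were called the opposite way, 89 of them pseudogenes. Several of the largest count ratios therefore depended on the table. C1rb, a complement protease gene with a close paralog, had a log2 ratio of -7.24 in counts and 0.67 in RPKM, and Pnp2, a purine nucleoside phosphorylase with a paralog beside it, had -5.04 and 0.32. Mup10 and Cyp3a41b went from -9.43 to 2.61 and from -8.74 to 2.16. Trf, the iron carrier transferrin, named after its values were seen, was at 1155 against 265 CPM (log2 ratio 2.09) and had 0.47 in RPKM. The tables give opposite directions for C1rb, Pnp2, Mup10 and Cyp3a41b, and the same direction with different sizes for Trf. Vkorc1, the vitamin K epoxide reductase, and Slirp, an RNA-binding protein of mitochondria, were called toward SMTseq4 in both tables, but 47.7% and 97.8% of their exonic bases overlap another gene, and neither kit keeps the strand.

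Nuclear protein-coding genes took 93.6% ± 0.545 of the counts with SMTseq4 and 88.8% ± 0.979 with Tru4. The protein-coding genes of mitochondrial DNA took 2.19%, 1.89% and 2.26% with SMTseq4 and 5.47%, 6.02% and 7.29% with Tru4, so that the lowest Tru4 library was above the highest SMTseq4 library (exact permutation test, two-sided, p = 0.1, the smallest possible; 8 RNA types compared). Without the 10 genes with the most counts in each library, which are not the same genes in every library, the difference in mitochondrial share was -0.527 in place of -4.15 percentage points. Shares of a total are tied to each other, and Alb and the mitochondrial genes weigh on all the others. Of 8 tested mitochondrial coding genes 6 were called toward Tru4 and 0 toward SMTseq4, with a median log2 ratio of -1.72, against -0.003 in the second pair. mt-Co1, the catalytic subunit of cytochrome c oxidase (chrM:5328-6872), was at 4467, 3730 and 3108 CPM with SMTseq4 and at 17362, 20208 and 23040 CPM with Tru4 (log2 ratio -2.46 ± 0.18; adjusted p = 2.26e-05), and its ratio was -1.35 in the second pair. mt-Nd2, of complex I, was at 2568 ± 383 against 8890 ± 1505 CPM (log2 ratio -1.82; adjusted p = 1e-04), with a ratio of -0.003 in the second pair (adjusted p = 0.993). mt-Nd6, another complex I subunit, was at 651 ± 145 against 2060 ± 469 CPM (log2 ratio -1.69; adjusted p = 0.000351), but was higher with SMART-Seq in the second pair (1.54; adjusted p = 0.000771). One of the 6, mt-Co2, reached the filter on low counts only through the Tru4 libraries, so its call is no support for a direction of these genes. It had 0 counts with SMTseq4 and at most 1.01 CPM with Tru4, but means of 4977 and 11817 RPKM. The 5 coding genes not tested (mt-Atp8, mt-Atp6, mt-Co3, mt-Nd3 and mt-Nd4l) were likewise at no more than 0.502 CPM on average in counts, and at 956 to 8131 RPKM with SMTseq4 and 1646 to 15742 RPKM with Tru4. Mean RPKM was nearly level for mt-Co3 (8131 against 8330) and mt-Nd3 (1619 against 1646), and higher with Tru4 for mt-Atp8, mt-Atp6 and mt-Nd4l. The mitochondrial share of the counts thus holds almost no reads of mt-Co2 and these 5 genes.

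The 2 mitochondrial ribosomal RNAs, which lie side by side on the same strand, did not move together. mt-Rnr2, the large one (chrM:1094-2675), was at 14675, 11523 and 13018 CPM with SMTseq4 and at 2963, 2019 and 2874 CPM with Tru4, a log2 ratio of 2.29 ± 0.19 (adjusted p = 3.64e-05; 3.93 in the second pair). mt-Rnr1, the small one (chrM:70-1024), was at 1549, 1599 and 2152 CPM against 2206, 1406 and 2148 CPM, and the kits overlapped (log2 ratio -0.14 ± 0.22; adjusted p = 0.616). CT010467.1, annotated as rRNA on chromosome 17, was at 3297, 1416 and 1680 CPM against 15988, 7579 and 10399.7 CPM (log2 ratio -2.45 ± 0.36; adjusted p = 0.000617; -0.30 in the second pair). These 3 genes were all the rRNA genes that could be tested. Their summed share, 1.70% ± 0.249 against 1.59% ± 0.509, overlapped between kits while its main members differed in opposite directions.

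Small RNA genes took 0.0703% ± 0.0150 of the counts with SMTseq4 and 0.260% ± 0.0936 with Tru4, without overlap (exact p = 0.1). The annotated miRNA genes Gm23935 and Gm24270 held most of the Tru4 share, at means of 1294 and 727 CPM. Their SMTseq4 means were 419 and 2.31 CPM, so the difference in share was mainly theirs. Of 38 small RNA genes tested, 9 were higher with SMTseq4 and 15 with Tru4. The largest ratios belonged to a family of annotated miRNA genes that share one sequence, printed here (GENCODE M21, GRCm38, 5′ to 3′) because copies with the same letters had different ratios; capitals mark bases that differ from Gm24270.
Gm24270 (chr9:56223715-56223771, minus strand): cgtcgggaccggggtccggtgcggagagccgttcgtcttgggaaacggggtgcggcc
Gm23935 (chr16:11144125-11144181, plus strand): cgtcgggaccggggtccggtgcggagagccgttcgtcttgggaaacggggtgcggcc
Gm24187 (chr13:9834469-9834525, minus strand): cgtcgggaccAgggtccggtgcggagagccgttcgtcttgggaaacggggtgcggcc
Gm25911 (chr1:167340369-167340424, minus strand, 1 base shorter): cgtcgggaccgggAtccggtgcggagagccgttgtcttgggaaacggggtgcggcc

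Gm24270 had 61, 41 and 81 reads with SMTseq4 and 30681, 24773 and 23242 reads with Tru4 (log2 ratio -8.32 ± 0.33; adjusted p = 1.51e-06). Gm23935, identical in sequence and named after its values were seen, had 10303, 7053 and 16120 reads against 60794, 41590 and 36256 reads (log2 ratio -1.65 ± 0.32; adjusted p = 0.00278), and -0.01 in the second pair. Gm25911, at 2 edits from Gm24270, had 0, 4 and 3 reads against 5162, 3988 and 4485 reads (log2 ratio -10.43 ± 0.47), and Gm24187, at 1 edit, had -5.99. In the RPKM tables the 4 genes had log2 ratios of -1.48, -0.86, -0.65 and 0.67 in the order Gm24270, Gm23935, Gm25911 and Gm24187, of which only the first passed the test. Gm24245, also identical to Gm24270 and named after its values were seen, had 1, 2 and 1 reads against 27, 16 and 19 (log2 ratio -3.42; adjusted p = 0.00411) and 2.41 in RPKM, past the test in the opposite direction. A read of 60 bases is longer than these genes and cannot assign one identical copy over another without its flanks.

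Called in the opposite direction were 9 small RNA genes, among them 4 of 7 tested mitochondrial tRNA genes (mt-Te, mt-Ti, mt-Tm and mt-Tq). All 4 reached the filter on low counts only through the SMTseq4 libraries. This tally is therefore partly set by the filter and is no support for a direction of the tRNA genes. Of these 4, mt-Te and mt-Ti (log2 ratios of 3.87 and 2.01) had -2.83 and -1.26 in RPKM, both past the test there. Shown here is mt-Tq, which kept its direction in RPKM.
mt-Tq (chrM:3772-3842, minus strand): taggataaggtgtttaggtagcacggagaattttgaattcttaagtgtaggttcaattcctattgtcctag

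Of 12285 genes at 1 CPM or more in all 3 Tru4 libraries, 9 were at 0 in all SMTseq4 libraries, 7 of them pseudogenes. The reverse held for 1 of 11876 genes at 1 CPM or more in all SMTseq4 libraries, the small RNA gene Snord13. mt-Tq, the mitochondrial glutamine tRNA, had 309, 624 and 548 reads against 8, 4 and 10 (log2 ratio 6.51 ± 0.41; adjusted p = 1.10e-05), although its RPKM ratio was only 0.68. Of the RNA polymerase III transcripts, Rn7sk (7SK RNA, which holds back transcription elongation) was at 0.721, 1.02 and 0.927 CPM with SMTseq4 and at 45.2, 14.1 and 12.7 CPM with Tru4 (log2 ratio -4.76 ± 0.55; adjusted p = 0.000164), the first Tru4 library standing above the other two. Rpph1, the RNA of ribonuclease P, had -4.07, with 73.0% of its bases shared with another gene's exons.

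Long non-coding RNAs were called in both directions. Their share of the counts was 0.367% ± 0.0261 with SMTseq4 and 0.368% ± 0.0415 with Tru4, and of 847 tested 127 were higher with SMTseq4 (14.99%) and 119 with Tru4 (14.0%), with a median of 0.23. Neat1, the scaffold of nuclear paraspeckles (20771 bases), was at 24.9, 13.3 and 23.5 CPM against 64.0, 42.0 and 57.1 CPM (log2 ratio -1.43 ± 0.25; adjusted p = 0.0017). Malat1, a nuclear speckle RNA on the same chromosome, was at 355 ± 47.3 against 284 ± 48.4 CPM and did not pass the test (log2 ratio 0.29; adjusted p = 0.198), although it passed with mouse as a replicate block (0.30). It had 1.02 in RPKM and 2.63 in the second pair, both past the test. H19, an imprinted fetal RNA, was at 0.636, 1.503 and 0.695 CPM against 8.79, 10.3 and 6.56 CPM (log2 ratio -3.21 ± 0.35; adjusted p = 0.000127). Among 15 snoRNA host genes 4 were called toward SMTseq4 and 3 toward Tru4, with Snhg9 at 1.55 against 0.0253 CPM on average. Snhg9 reached the filter on low counts only through the SMTseq4 libraries, so its call is no support for a direction of the list.

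Cell type markers were read to see whether the kits gave the same picture of the liver; the RNA of each mouse was divided between kits, so the mix of cells is shared; in bulk RNA fewer cells of a type and less RNA per cell cannot be told apart. Over all tested genes 8.63% were called toward SMTseq4 and 15.5% toward Tru4, and the marker lists are too small for their tallies to be told from these shares. None of 9 Kupffer cell markers was called at 2-fold (median log2 ratio -0.10), none of 8 stellate cell markers (0.02) and none of 5 B cell markers (0.28). Without Tru4 replicate 3, 2 stellate cell markers were called toward Tru4 and 1 B cell marker toward SMTseq4, and still none of the Kupffer cell markers. With the labels as written the Kupffer median was -3.57. Among 8 hepatocyte markers, Alb and Hnf4a were called toward Tru4. Hnf4a, a nuclear receptor of hepatocyte identity (4362 bases), was at 223, 143 and 167 CPM against 517, 551 and 504 CPM (log2 ratio -1.59 ± 0.17; adjusted p = 9.79e-05; -1.64 in the second pair). Apoa1, in the same list, had 0.84 (adjusted p = 0.0059). Among 8 endothelial markers, Stab1, a scavenger receptor of sinusoidal cells (7999 bases, 57.3% GC), was at 7.34, 7.35 and 8.21 CPM against 30.5, 32.4 and 30.6 CPM (log2 ratio -2.06 ± 0.13; adjusted p = 1.12e-05), and Pecam1 was the other called gene (-1.25). The median of the 8 endothelial markers was -0.66 (-0.48 in the second pair). Clec4g (1442 bases), which lay above that median, had 0.20 and did not pass the test (adjusted p = 0.239). Of the rest, 1 of 5 cholangiocyte markers (Spp1, 1.31), 1 of 5 T and NK cell markers and 2 of 5 erythroid markers were called toward SMTseq4, and 0 toward Tru4. The erythroid calls included Hba-a1 (1.32), but hemoglobin genes did not move together. Of 4 tested, 2 were called toward SMTseq4 and 0 toward Tru4, while Hba-a2 had -0.94 (adjusted p = 0.000759, and -1.37 in the second pair). Of 7 neutrophil markers 4 were too low to test; Ngp, S100a8 and S100a9 were called toward SMTseq4, but at 0.693, 1.75 and 2.01 CPM against 0.0651, 0.328 and 0.664 CPM on average, so that members could pass the filter through the higher kit alone.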

How the data were processed

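Liver input RNA of 3 mice was compared between SMTseq4 and Tru4 (3 libraries each, 4 ng), with SMTseq0.25 and Tru70 (0.25 and 70 ng) as a second pair. The authors trimmed reads to 60 bases, aligned them with TopHat to GRCm38 and deposited exon read counts per gene, without ambiguous or multiply mapped reads; the strand setting is not given in the sources used here. They also deposited RPKM per gene. The length these RPKM values imply was a median of 1.29 to 1.56 times the gene's span and 5.66 to 6.99 times its exons, depending on the library, so they are not the counts divided by exon length, and ratios of them were used only as an alternative.

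Counts were fitted with edgeR 4.0.16 (R 4.3.3; TMM, filterByExpr, quasi-likelihood test, Benjamini-Hochberg adjustment over all genes tested, kit as the only term); a call needed an adjusted p under 0.05 and a 2-fold ratio. Lines for no feature (3.45% to 7.91%) and ambiguous reads (6.53% to 9.87%) were left out. CPM were counts over the library's total, and errors of CPM are SDs over 3 libraries. RPKM were tested with limma 3.58.1 on log2(RPKM + 0.1). Such ratios understate changes of low genes. DESeq2 1.42.0 was an alternative, and the edgeR and limma steps were tested on simulated data. Of 47729 gene IDs, 47310 matched GENCODE M21, which gave symbols, types and lengths; 14923 of 14967 tested genes had a length. Shares and detection were compared with exact permutation tests.

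Named genes were the 10 with the most counts, the largest ratios of coding genes, of each other RNA type and of each length class among called genes whose CPM did not overlap between kits (at least 10 CPM for coding genes and 1 CPM for others), and the 4 most abundant and 2 extreme members of each list; the rest were named after their values were seen, and some items are not reported here. The libraries, lists and tests were chosen with earlier results of these data known. Same-numbered libraries come from the same mouse: their deviations from the kit means correlated at 0.25, 0.17 and 0.35, against -0.24 to 0.005 for other numbers.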

Additional observations from a re-analysis of the deposited data

How the results depend on the processing

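The counts of called genes stayed within 1.5 times under other size factors, filters, DESeq2 and the replicate block, except that 3201 genes passed the test with the labels as written and 1065 were called toward Tru4 on the authors' RPKM (an alternative chosen after seeing the data, as was the APPRIS principal transcript). With 1 library left out, 5737 to 6559 genes passed the test, 1104 to 1382 were called toward SMTseq4 and 2139 to 2555 toward Tru4. With mouse as a replicate block 8483 genes passed, with 1339 and 2447 called, and the paired fit of the second pair gave 1178 and 1590; the block changed the call of 4 of the 86 genes, Ttr, Atp5b, Atp5a1 and Malat1, which then passed. On RPKM 6 of the 86 genes compared reversed: C1rb (0.67), Pnp2 (0.32), Mup10 (2.61), Cyp3a41b (2.16), Gm24187 (0.67) and Gm6681 (1.42). Ahsg (0.17) and mt-Rnr1 (0.45), which did not pass the test, reversed with the labels as written, where 28 of the 86 genes, Alb, Apob, Apoa2, Fabp1, mt-Co1 and Hnf4a among them, kept their direction and no longer passed. On RPKM 5 no longer passed: Apoe, Zfp871, Cox7a2l, Gm25911 and Gm23935. Hist1h1c, which did not pass the test, ran from -0.0890 to 0.25 when 1 library was left out. Mup3 (1.46) lost its call without SMTseq4 replicate 1 or Tru4 replicate 2. The causes were not tested.

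The median up to 0.5 kb was -0.26 with no filter, 0.74 for coding genes only, 1.12 on RPKM, 1.36 by principal transcript and -0.21 to 0.0383 with 1 library left out. At 0.5 to 1 kb it was 0.31 with no filter, 0.67 with CPM of at least 1, 0.31 by merged exon length, 1.06 for coding genes only, 0.80 on RPKM, 1.03 by principal transcript and 0.45 to 0.62 with 1 library left out. At 1 to 10 kb, where the main value was -0.02, it was -0.0068 with RLE size factors, -0.0069 with DESeq2, 0.0066 with library totals, -0.0504 with no filter, -0.15 with the labels as written, 0.0309 by merged exon length, -0.0347 on RPKM, -0.0360 by principal transcript and -0.0692 to -0.0252 with 1 library left out. Over 10 kb it was -0.58 by merged exon length, -0.23 on RPKM and -0.96 to -0.74 with 1 library left out. The difference in rRNA share was 0.111 percentage points, -0.48 without the 10 genes with the most counts in each library and -0.13 to 0.376 with 1 library left out, and that of long non-coding RNA ran from -0.0231 to 0.0171. The difference in mitochondrial coding share was -4.15, -0.527 without those 10 genes and -1.96 with the labels as written, and that of nuclear coding genes 4.83, 2.43 and 2.72. Genes with few reads, such as Snhg9, are limited by depth.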
